A study of Saccharomyces cerevisiae with 8 samples.

Results

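Budding yeast (Saccharomyces cerevisiae) lacking SWI4 was compared with yeast lacking DOT1, through 2 arrays of each strain and the 5449 genes that have a symbol on the array. These are 4 of the 8 arrays of a study whose title names Dot1, methylation of histone H3, natural heterochromatin and the silent mating-type cassettes HML and HMR. The arrays were chosen by their titles, "swi4 delete" and "dot1 delete", and all genes with a symbol were kept. The genotypes are given as swi4 and dot1, and each strain was grown in rich medium (YPD) at 30 C and harvested in mid-log phase at an optical density of 0.7. The labels call the arrays of a strain biological replicates, and they do not say whether these were separate cultures, so the error may in part be technical. Strain background, mating type, selection marker and the extent of each deletion were not stated in the labels. No wild type enters the difference: a gene that is higher in swi4 than in dot1 may be high in swi4, low in dot1, or both, and the wild-type (wt) levels are set beside the values for that reason only.

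Swi4 binds DNA within SBF, a factor that it forms with Swi6 and that switches on the G1 cyclin genes and genes of budding and cell wall growth when a cell commits to division. A sister factor, MBF, has Mbp1 in place of Swi4 and acts on genes of DNA replication. Dot1 methylates a lysine on the surface of the nucleosome core, in histone H3, a mark of most of the genome that is low in silent chromatin near telomeres and at the cassettes HML and HMR.

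The arrays of swi4 resembled each other more than those of dot1. The SD over genes of the difference between replicates was 0.144 on the log2 scale in swi4 and 0.298 in dot1, beside 0.325 in wt and 0.172 in ard1, the remaining strain of the study. The median intensity of an array lay between 623 and 644 over the 4 arrays compared. It was 625 for wt replicate 1 and 713 for wt replicate 2. The place of wt beside the mutants thus rests on 2 arrays of unlike brightness. The median difference between the strains over all genes, swi4 minus dot1, was −0.01 on the log2 scale.

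Of 5449 genes, 55 (1.01%) passed an adjusted p under 0.05, 20 higher in swi4 (0.367%) and 35 lower (0.642%). Of these, 11 of the higher and 20 of the lower genes differed by at least 2-fold. Differences are log2 of swi4 over dot1 with the standard error (SE) of limma's estimate, n = 2 arrays per group, and adjusted p-values are from that fit over all 5449 genes. At an unadjusted p under 0.05 there were 311 genes higher (5.71%) and 328 lower (6.02%). Genes whose 2 swi4 arrays both lay above both dot1 arrays made up 20.6% of all genes, and those with both below made up 23.8%. All 20 higher and all 35 lower genes were among these, so a lack of overlap adds no support to a call. In the plot of swi4 against dot1 levels the called genes below the diagonal reach farther from it than those above, apart from NCA3 and the deleted gene DOT1.

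**Figure D1:**
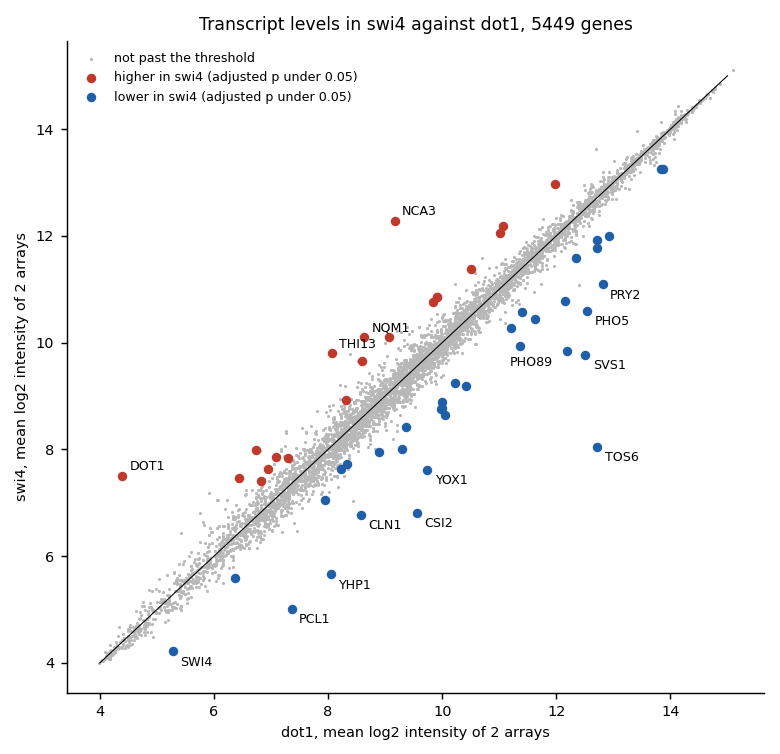
Mean log2 intensity of the 2 swi4 arrays (vertical axis) against that of the 2 dot1 arrays (horizontal axis) for 5449 genes, each point 1 gene and the line marking equal levels. The 35 genes lower in swi4 are blue and the 20 higher are red, and TOS6, with a difference of −4.68, lies farthest below the line.

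The calls rested on few arrays. With 1 of the 4 compared arrays left out at a time, 12 of the 55 genes passed the threshold every time, 10 of them lower (TOS6, SVS1, CSI2, PCL1, PHO89, YOX1, PHO5, PRY2, PLB2 and NRM1) and 2 higher (NCA3 and DOT1). A further 29 of the 55 passed in none of these fits, so their calls needed all 4 arrays. The counts were 21 higher and 17 lower when dot1 replicate 1 was left out. They were 2 and 12 without dot1 replicate 2, 2 and 11 without swi4 replicate 1, and 2 and 10 without swi4 replicate 2. When only the 4 compared arrays were fitted, so that wt and ard1 did not help to estimate the error, 3 genes were higher and 13 lower.

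**Figure D2:**
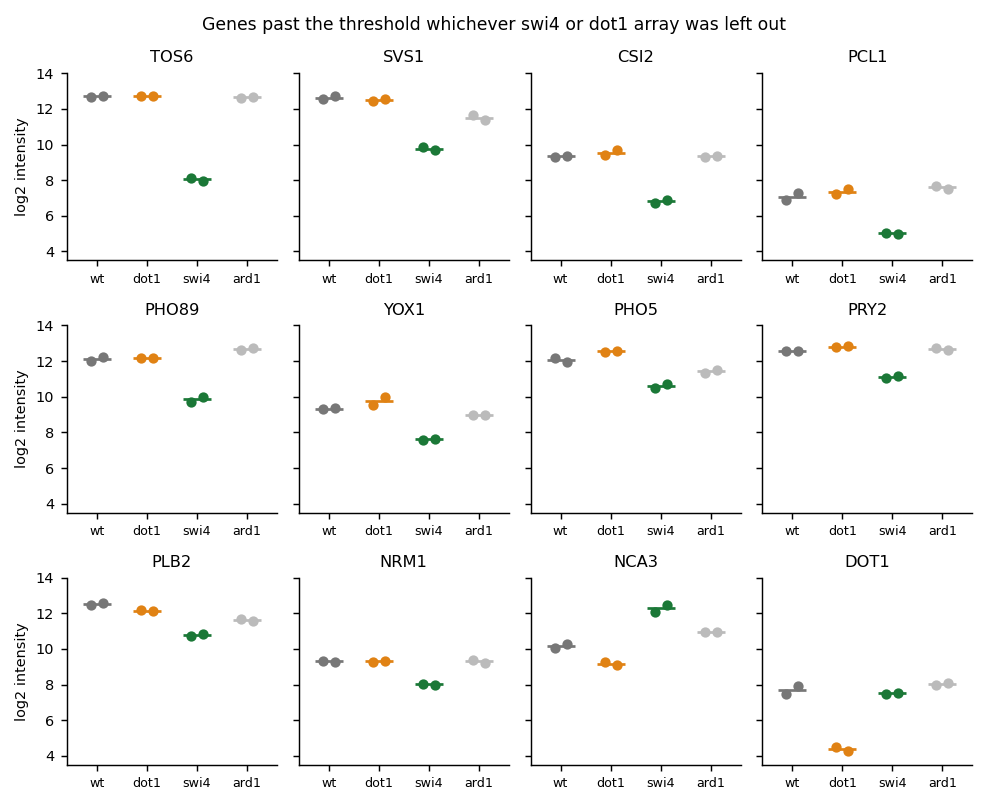
Log2 intensity (vertical axis) on each array of wt, dot1, swi4 and ard1 for the 12 genes that passed the threshold whichever swi4 or dot1 array was left out, each point 1 array and each line the mean of 2. The swi4 arrays of TOS6, at 8.12 and 7.98, lie far below the other 6, and NCA3 is the gene whose swi4 arrays lie above all others.

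The deleted genes came first. DOT1 had log2 intensities of 4.49 and 4.29 in dot1 and 7.49 and 7.52 in swi4, a difference of 3.12 ± 0.15 (adjusted p = 0.000356). The dot1 arrays were close to 4.02, the lowest mean of any gene, so the size of this difference is a lower bound. SWI4 had 5.07 and 5.48 in dot1 and 4.21 and 4.22 in swi4, a difference of −1.06 ± 0.14 (adjusted p = 0.0262). SWI4 was thus dim in both strains and near the lowest level in its own deletion, where the size is likewise a lower bound, and each gene was lower in the strain labelled as its deletion. The call of SWI4 held without dot1 replicate 1 and was lost without any other of the 4 arrays, with adjusted p-values from 0.0161 to 0.266. None of the flanking genes passed the threshold: KAP123 and LSM4 beside SWI4 differed by 0.04 and −0.41, and LRS4 and APT2 beside DOT1 by −0.18 and −0.11.

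Known SBF targets held 12 of the 35 genes lower in swi4. Of the 28 measured, 12 were lower and 0 higher, and 25 had a difference below 0. For 23 of the 28 both swi4 arrays lay below both dot1 arrays, beside 23.8% of all genes. The median of the 28 was −0.63 and that of all genes −0.01. The targets differed widely among themselves, from −4.68 for TOS6 to 0.18 for SWE1, a kinase gene of the morphogenesis checkpoint.

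TOS6, whose product is a cell wall protein with a lipid anchor, had the largest difference of all genes tested. Its levels were 12.75 and 12.70 in dot1 and 8.12 and 7.98 in swi4, a difference of −4.68 ± 0.09 or 25.6-fold (adjusted p = 3.69e-06). The 2 strains lay far apart, while wt, at 12.65 and 12.75, stood with dot1. SVS1, a cell wall and vacuolar protein gene, had 12.45 and 12.57 in dot1 and 9.85 and 9.69 in swi4 (−2.74 ± 0.14, adjusted p = 0.000356). CSI2, whose product has no settled function, had 9.40 and 9.70 in dot1 and 6.71 and 6.91 in swi4 (−2.74 ± 0.13, adjusted p = 0.000356). Neither gene's groups overlapped, and the wt arrays of SVS1 (12.53 and 12.72) and CSI2 (9.29 and 9.37) were near those of dot1.

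The homeobox repressors of the preceding cell cycle window were among the lower targets. YOX1 had 9.51 and 9.96 in dot1 and 7.59 and 7.65 in swi4 (−2.11 ± 0.15, adjusted p = 0.00136). YHP1, its relative, had 7.90 and 8.20 in dot1 and 5.63 and 5.68 in swi4 (−2.39 ± 0.20, adjusted p = 0.00344). The strains did not overlap for either gene, and the folds were 4.33 and 5.24. The call of YHP1 was lost in 2 of the 4 fits with an array left out, at adjusted p-values of up to 0.0572.

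The other 4 called targets outside the cyclins differed by smaller amounts. GIC1 and GIC2, effectors of the polarity GTPase Cdc42, differed by −1.22 ± 0.16 (adjusted p = 0.0251) and −0.82 ± 0.12 (adjusted p = 0.0419). AXL2, the membrane landmark of axial budding, differed by −0.97 ± 0.11 (adjusted p = 0.0191), and SRL1, a cell wall mannoprotein, by −0.61 ± 0.08 (adjusted p = 0.0313). As for every called gene, the dot1 and swi4 arrays did not overlap for these 4 genes. All 4 calls needed every one of the 4 arrays, with adjusted p-values from 0.0614 to 0.360 when 1 was left out.

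The other 16 targets did not pass the threshold. MSB2, the mucin sensor of the filamentous growth pathway, TOS8, a homeodomain factor gene, and MNN1, a Golgi mannosyltransferase, each had a difference of −0.66, with SE of 0.12, 0.15 and 0.25. PCL2, a cyclin of the Pho85 kinase, had −0.48 ± 0.10, PLM2 −0.43 ± 0.10, TOS4 −0.43 ± 0.14, TOS2 −0.41 ± 0.11, and HCM1, a forkhead factor of S phase, −0.40 ± 0.12. These 8 values thus lay between −0.66 and −0.40, well short of TOS6. HO, the endonuclease of mating-type switching, had −0.33 ± 0.16, NDD1 −0.17 ± 0.21, SPT21 −0.14 ± 0.13, TOS1 −0.13 ± 0.09 and BUD9 −0.06 ± 0.11. TOS3 and RSR1 had 0.12 ± 0.12 and 0.14 ± 0.21. The number of targets called was 7 when dot1 replicate 1 was left out, 6 when dot1 replicate 2 was and 5 without either swi4 array, and the median stayed between −0.59 and −0.54.

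**Figure D3:**
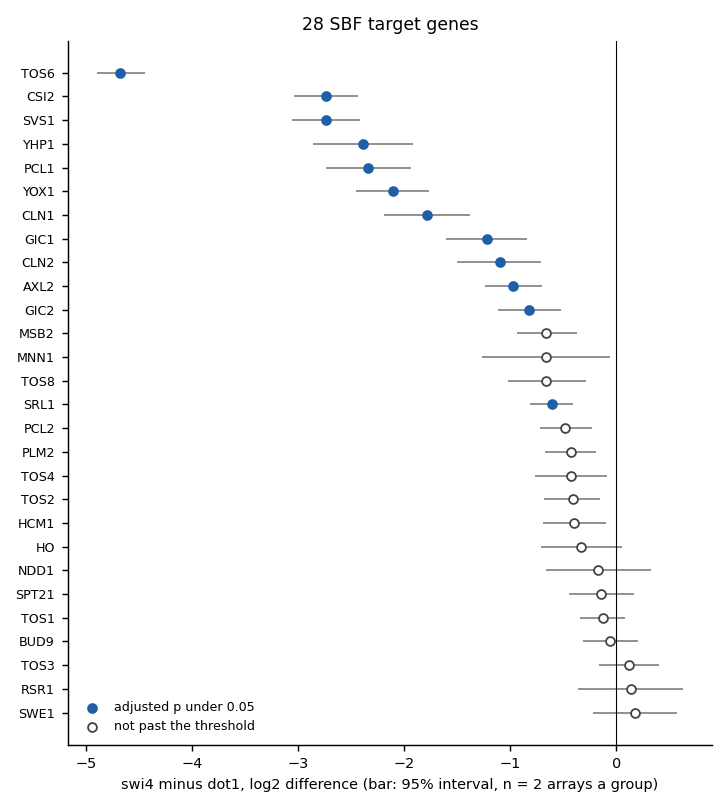
Difference swi4 minus dot1 on the log2 scale (horizontal axis) for the 28 measured SBF targets in order of size, with the 95% interval of limma's estimate from 2 arrays per group. Filled points mark the 12 genes past the adjusted threshold, which range from −4.68 to −0.61, and SRL1 is called at a smaller difference than MNN1, whose interval is wider.

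The G1 cyclins were split. Of 9 genes of cyclins active in G1 and HO, 3 were lower and 0 higher, and all 3 are also among the SBF targets. CLN1 had 8.39 and 8.74 in dot1 and 6.78 on both swi4 arrays (−1.79 ± 0.17, adjusted p = 0.00676). CLN2 had 9.81 and 10.16 in dot1 and 8.81 and 8.97 in swi4 (−1.10 ± 0.17, adjusted p = 0.0419). PCL1, another cyclin of the Pho85 kinase, had 7.22 and 7.50 in dot1 and 5.06 and 4.97 in swi4 (−2.34 ± 0.17, adjusted p = 0.0016). All 3 were well separated, and only PCL1 kept its call whichever array was left out, while the adjusted p reached 0.102 for CLN1 and 0.347 for CLN2. CLN3, the cyclin that acts upstream of SBF, had 12.57 and 12.45 in dot1 and 12.87 and 12.85 in swi4 (0.35 ± 0.23, adjusted p = 0.655). The B-type cyclins of S phase gave −0.14 ± 0.11 for CLB5 and 0.02 ± 0.14 for CLB6, and PCL9 gave −0.30 ± 0.12, none past the threshold.

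Among 12 subunits and regulators of SBF and MBF, 1 was higher and 2 lower, SWI4 being 1 of the latter. NRM1, the co-repressor that turns off MBF targets after G1, had 9.27 and 9.33 in dot1 and 8.01 and 8.0 in swi4 (−1.30 ± 0.09, adjusted p = 0.00165). MSA2, a G1 regulator that associates with SBF and MBF, had 8.39 and 8.80 in dot1 and 9.69 and 9.63 in swi4 (1.07 ± 0.16, adjusted p = 0.0419). The strains did not overlap for either gene, but the call of MSA2 was lost whichever array was left out (adjusted p = 0.0556 to 0.336). MSA1, its relative, had 0.57 ± 0.18 (adjusted p = 0.260). Both its swi4 arrays (8.83 and 8.84) lay above both dot1 arrays (8.01 and 8.53), as for 20.6% of all genes. SWI6 and MBP1, the partner subunits, had −0.31 ± 0.22 and −0.20 ± 0.20. The inhibitors WHI5 and SRL3 had −0.07 ± 0.10 and −0.11 ± 0.13, STB1 had 0.34 ± 0.10, BCK2 −0.12 ± 0.23, XBP1 0.28 ± 0.23 and SKN7 −0.06 ± 0.12, with no call among them.

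The list of MBF targets and DNA replication genes gave 1 call, the regulator NRM1 described above, and none of a replication gene. Of 33 measured, 0 were higher and 1 was lower, which was NRM1, and 24 had a difference above 0, with a median of 0.16. Without dot1 replicate 1 the median was 0.03, and without dot1 replicate 2 it was 0.28, so its size moved with the dot1 array used. The count of higher genes depended on the setting: it was 4 under median centring, 3 under quantile normalization, 3 with array weights, 2 with the 6 mutant arrays fitted and 1 without the dimmest genes. The largest values above 0, named after their values were seen, were 0.73 ± 0.15 for POL1, the catalytic subunit of DNA polymerase alpha (adjusted p = 0.0888), 0.71 ± 0.12 for CDC21, thymidylate synthase (adjusted p = 0.0513), and 0.53 ± 0.09 for POL2, the catalytic subunit of polymerase epsilon (adjusted p = 0.0536). POL1 had 7.83 and 8.09 in dot1 and 8.64 and 8.75 in swi4. RNR1, the large subunit of ribonucleotide reductase, had a value of the opposite sign, −0.64 ± 0.19 (adjusted p = 0.235).

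None of 9 measured histone genes passed the threshold, yet all 9 had both swi4 arrays below both dot1 arrays, beside 23.8% of all genes. Their differences ran from −0.52 to −0.08 with a median of −0.33. HHT1, a histone H3 gene, had 11.99 and 11.93 in dot1 and 11.44 on both swi4 arrays (−0.52 ± 0.10, adjusted p = 0.0823). HTB2, a histone H2B gene, gave −0.47 ± 0.10 and HTZ1, the H2A variant, −0.46 ± 0.09. All 9 differences remained below 0 under median centring and under quantile normalization. Leaving out 1 of the 4 arrays could not turn their sign, because the strains did not overlap for any of the 9. The count of lower genes was 4 of 9 with a trend and robust variance model, and 1 with array weights or with the 6 mutant arrays fitted. The wt arrays of HHT1, at 12.15 and 12.37, lay above both strains.

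In the CLB2 cluster, whose genes are transcribed in G2 and M phase, 1 of 22 genes was lower and 0 were higher. CLB1, a B-type cyclin of mitosis, had 9.85 and 10.12 in dot1 and 8.69 and 8.84 in swi4 (−1.22 ± 0.16, adjusted p = 0.0223). The groups did not overlap, and the call was lost in 3 of the 4 fits with an array left out, at adjusted p-values of up to 0.252. The Polo kinase gene CDC5 had −0.94 ± 0.20 (adjusted p = 0.116) and CLB2 −0.70 ± 0.23 (adjusted p = 0.263), both chosen after their values were seen. The median of the 22 was −0.13, and 6 differences were above 0, up to 0.38. Without dot1 replicate 2 the median was −0.03, with 10 above 0. Of 25 genes of the M/G1 boundary only SWI4 itself was called. Cell cycle phases of the cultures were not measured, and an unequal share of cells in a phase cannot be told apart from an unequal level per cell in these bulk samples.

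NCA3 was the gene with the largest positive difference after DOT1. It belongs to the SUN family of secreted cell wall proteins related to glucanases. Its levels were 9.26 and 9.08 in dot1 and 12.06 and 12.49 in swi4, with wt at 10.06 and 10.25. This is a difference between the mutants of 3.11 ± 0.16 or 8.61-fold (adjusted p = 0.000356). Thus wt lay between the mutants, nearer to dot1, and the call held whichever array was left out. The other SUN genes, named after their values were seen, gave −0.41 ± 0.10 for SUN4, 0.25 ± 0.08 for UTH1 and −0.21 ± 0.09 for SIM1, none past the threshold.

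Of 40 genes of cell wall synthesis and cell wall proteins, 4 were lower and 0 higher, with a median of −0.07. PRY2, a secreted sterol-binding protein, had 12.78 and 12.84 in dot1 and 11.03 and 11.16 in swi4 (−1.71 ± 0.09, adjusted p = 0.000428). HPF1, a haze-protective mannoprotein, had 11.72 and 11.54 in dot1 and 10.52 and 10.38 in swi4 (−1.18 ± 0.10, adjusted p = 0.00405). Both were clearly separated, and they differ in where wt lay: at 12.58 and 12.59 for PRY2, near dot1, and at 10.87 and 10.92 for HPF1, nearer to swi4. CWP1, a wall mannoprotein, gave −0.59 ± 0.09 (adjusted p = 0.0419), and SRL1 is described above. PIR3, a wall protein with internal repeats, had 0.93 ± 0.17 (adjusted p = 0.0695). In the cell wall integrity pathway 1 of 20 genes was lower, WSC4, a member of the wall stress sensor family (−0.95 ± 0.11, adjusted p = 0.0191). With an array left out the calls of CWP1, SRL1 and WSC4 were lost in 4, 4 and 3 of the 4 fits, and that of HPF1 in 1, without swi4 replicate 2 (adjusted p = 0.0691).

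Genes induced by mating pheromone had differences below 0 throughout, with 1 call. Of 17 measured, FIG1, a membrane protein needed for efficient mating, was lower, at 6.28 and 6.45 in dot1 and 5.66 and 5.51 in swi4 (−0.78 ± 0.11, adjusted p = 0.0313). All 17 differences were below 0, and their median was −0.48. For 15 of the genes both swi4 arrays lay below both dot1 arrays, beside 23.8% of all genes. Over the 17 genes dot1 replicate 1 minus dot1 replicate 2 had a median of −0.25, beside −0.02 over all genes. FUS1, a cell fusion protein gene named after its value was seen, had −0.81 ± 0.31 and replicates far apart in dot1, at 8.44 and 9.20 against 7.88 and 8.14 in swi4. Without dot1 replicate 2 the median of the 17 was −0.31 and 2 differences were above 0, and the call of FIG1 was lost with any of the 4 arrays left out (adjusted p = 0.0614 to 0.287).

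Marker genes of mating type and sporulation gave no call between the strains. The median level of 5 alpha-specific genes was 13.45 and 13.65 on the dot1 arrays and 13.43 and 13.46 on the swi4 arrays. The median of 7 a-specific genes was 6.68 and 6.70 in dot1 and 6.63 and 6.49 in swi4, and that of 19 sporulation and meiosis genes was between 5.84 and 6.12 on the 4 arrays. Levels of different probe sets cannot be set against each other, so these values compare the strains and do not give their mating type. None of 12 haploid-specific genes passed the threshold either. Their differences ran from −0.43 to 0.25. Among the sporulation and meiosis genes the largest differences were −0.98 ± 0.30 for SPS1, a kinase of spore formation, and 1.01 ± 0.18 for DIT1, a spore wall enzyme (adjusted p = 0.0663). HOP1, a meiotic chromosome axis protein on the same list, had 1.00 ± 0.18 (adjusted p = 0.0682).

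No call was made at the silent mating-type cassettes. HMRA1, the a1 repressor gene at HMR, had 4.12 and 4.10 in dot1 and 4.15 and 4.11 in swi4 (0.02 ± 0.08, adjusted p = 0.971). All 4 arrays lay close to the lowest gene mean of 4.02, so HMRA1 was at or near the bottom of the scale in both strains. HMLALPHA1 gave −0.16 ± 0.12 and HMRA2 −0.39 ± 0.12, on probe sets that also read near-identical copies. Of 22 silencing factor genes 0 passed the threshold, with a median of −0.12. The largest were −0.81 ± 0.22 for REB1 (adjusted p = 0.192), −0.53 ± 0.22 for ABF1 and −0.48 ± 0.11 for RAP1, genes of general factors that bind promoters and, for Rap1, telomeres. Of 21 genes of histone H3 methylation and H2B ubiquitination, DOT1 was the only call.

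The outermost measured genes of the chromosomes held 5 of the 20 genes that were higher in swi4. Position was taken from systematic names, which number genes outward from the centromere on each of 32 chromosome arms. Among the 4 outermost measured genes of each arm, 5 of 128 were higher (3.91%) and 0 lower. Of the 128 differences 62.5% were above 0, and the median was 0.09. Over the same 128 genes dot1 replicate 1 minus dot1 replicate 2 had a median of 0.22, beside −0.02 over all genes. The 0.22 is between single arrays and the 0.09 between means of 2 arrays, so their sizes are not comparable. Replicate 1 had the higher median level over these genes in every strain of the study. For dot1 the medians were 7.96 against 7.53, and for swi4 8.09 against 7.95. Those of wt were 7.93 against 7.78, and those of ard1 7.50 against 7.41. Each mean takes in 1 array of either number, so a shift common to both strains would cancel in their difference. Among the next 4 of each arm, 1 was higher and 3 were lower. Beyond the 8 outermost genes, 14 of 5193 were higher (0.27%) and 32 lower (0.616%). These shares were not set against each other with a test.

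The 5 outermost genes that were higher had the same order of strains. YBL113C, an open reading frame of unknown function in a repeated end element, had 11.03 and 11.00 in dot1 and 12.05 and 12.07 in swi4, with wt at 11.49 and 11.66 (1.04 ± 0.09, adjusted p = 0.00451). COS8, of a family of membrane proteins in protein sorting, had 11.28 and 10.86 in dot1 and 12.20 and 12.18 in swi4, with wt at 11.57 and 11.31 (1.12 ± 0.16, adjusted p = 0.0359). YFL068W (0.95 ± 0.12), YFL067W (0.69 ± 0.09) and YPL278C (0.57 ± 0.09) are also uncharacterised. In all 5 genes wt lay between the mutants, with dot1 below and swi4 above. Each of these calls was lost in most or all of the fits with an array left out. Among the 8 outermost genes of each arm 9 were called in either direction. Of these only PHO89, which was lower in swi4, kept its call whichever array was left out. YBL113C and YPL278C are read by probe sets shared with near-identical copies.

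The other called genes among the 8 outermost were THI13 (1.73), PHO89 (−2.34), ZRT1 (−0.80) and OPT2 (−1.21), which belong to nutrient uptake or synthesis. Of 9 measured COS genes, 1 was higher, all 9 had differences above 0 and the median was 0.29. Beside this, the 2 dot1 arrays differed from each other by a median of 0.25 over the same 9 genes, replicate 1 above replicate 2. All 9 differences were above 0 also with any 1 of the 4 arrays left out, with medians from 0.19 to 0.39. For 7 of the 9 this sign was fixed in advance, because both swi4 arrays lay above both dot1 arrays. Neither the 13 seripauperin genes nor the 11 flocculin and filamentous growth genes held a call. Of 9 TIR and DAN genes 1 was lower, the wall mannoprotein gene TIR1 (−0.94 ± 0.12, adjusted p = 0.0215). Its call was lost when only the 4 compared arrays were fitted (limma, adjusted p = 0.109).

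**Figure D4:**
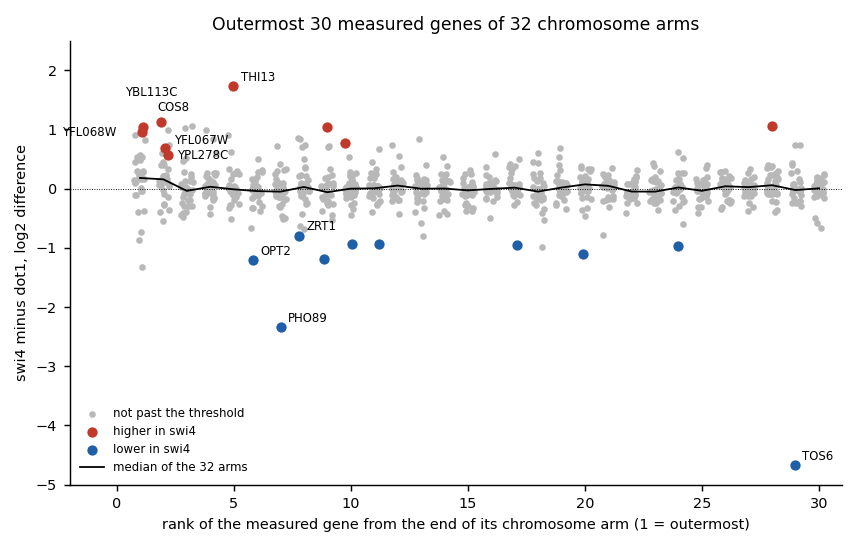
Difference swi4 minus dot1 on the log2 scale (vertical axis) for the outermost 30 measured genes of each of 32 chromosome arms by rank from the end (horizontal axis), with the median of the arms as a line. The 5 red points at the outermost ranks are YBL113C, YFL068W, COS8, YFL067W and YPL278C, and the lower genes PHO89, OPT2 and ZRT1 lie at ranks 7, 6 and 8.

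Phosphate genes were the nutrient group with the largest differences. Of 21 measured, 3 were lower and 1 higher, with a median of −0.22. PHO89, a sodium and phosphate cotransporter, had 12.18 and 12.19 in dot1 and 9.72 and 9.97 in swi4 (−2.34 ± 0.12, adjusted p = 0.000416). PHO5, the main secreted acid phosphatase, had 12.49 and 12.59 in dot1 and 10.48 and 10.72 in swi4 (−1.94 ± 0.13, adjusted p = 0.00125). These 2 genes were separated by far more than the replicate difference, and their calls held whichever array was left out. SPL2, a small regulator of low-affinity phosphate uptake, had 11.31 and 11.41 in dot1 and 9.75 and 10.13 in swi4 (−1.42 ± 0.17, adjusted p = 0.0213), with wt at 10.57 and 10.42. Its call needed all 4 arrays.

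PHO3, the phosphatase beside PHO5 that is repressed by thiamine rather than by phosphate, was higher, at 11.82 and 12.11 in dot1 and 12.87 and 13.07 in swi4 (1.01 ± 0.13, adjusted p = 0.0251, lost with any array left out). PHM6 and PHO11, named after their values were seen, had −1.40 ± 0.26 (adjusted p = 0.0707) and −1.32 ± 0.22 (adjusted p = 0.0513), of which PHO11 is read by a shared probe set. The regulon was not uniform: its high-affinity transporter gene PHO84, also chosen after its value was seen, had −0.14.

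Iron genes gave 3 calls, all with smaller differences than PHO89 and PHO5. Of 29 measured, 3 were lower and 0 higher, 25 had a difference below 0 and the median was −0.25. FIT2 and FIT3, wall mannoproteins that retain iron carriers, differed by −0.94 ± 0.11 (adjusted p = 0.0213) and −0.94 ± 0.12 (adjusted p = 0.0215). TIS11, an RNA-binding protein that lowers transcripts of iron-using enzymes, had 9.90 and 10.19 in dot1 and 8.54 and 8.77 in swi4, with wt at 9.22 and 8.70 (−1.39 ± 0.19, adjusted p = 0.0313). FIT2 had 11.25 and 11.17 in dot1 and 10.15 and 10.41 in swi4, with wt at 11.40 and 11.26. For FIT2 wt stood with dot1, and for TIS11 it stood nearer to swi4. All 3 calls needed all 4 arrays, and none was made when only the 4 compared arrays were fitted. In the zinc regulon 1 of 11 was lower, ZRT1, the high-affinity zinc transporter (−0.80 ± 0.13, adjusted p = 0.0496), which no fit with an array left out called (adjusted p = 0.129 to 0.394).

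Stress genes gave 1 call. Of 36 genes of the Msn2 and Msn4 stress response 1 was higher, NQM1, a transaldolase-like protein, with 8.92 and 8.33 in dot1 and 10.28 and 9.93 in swi4 (1.47 ± 0.22, adjusted p = 0.0419). It was called without dot1 replicate 1 only (adjusted p = 0.0347 to 0.336). ALD3, an aldehyde dehydrogenase, and GND2, a phosphogluconate dehydrogenase, both named after their values were seen, had 1.17 ± 0.22 (adjusted p = 0.0715) and 1.40 ± 0.27 (adjusted p = 0.0798). None of 25 heat shock chaperone genes was called, and their median was 0.00. HSP26, a small heat shock protein gene, was high in both mutants, at 11.87 and 11.67 in dot1 and 12.52 and 12.11 in swi4. It was high in ard1 too, at 11.88 and 11.89, beside 8.75 and 8.26 in wt. Its difference between swi4 and dot1 was 0.54 ± 0.20 (adjusted p = 0.336).

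The median of the ribosome biogenesis genes moved with the choice of array. None of 68 genes was called, and the median was 0.09. On the dot1 arrays replicate 1 lay below replicate 2 by a median of 0.54 over these genes, and on the swi4 arrays by 0.20. The order was the same in the other strains, with median levels of 10.25 and 10.92 in wt and 10.47 and 10.61 in ard1. Without dot1 replicate 1 the median difference between strains was −0.20, and without dot1 replicate 2 it was 0.38, so its sign changed with the array. BUD23, a methyltransferase of ribosomal RNA, had the largest difference, 0.65 ± 0.16 (adjusted p = 0.160).

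Metabolic lists gave 1 call, ARG1, argininosuccinate synthetase, at 10.04 and 9.76 in dot1 and 10.91 and 10.79 in swi4 (0.95 ± 0.14, adjusted p = 0.0419), among 8 arginine genes. It was lost with any array left out. No gene was called among those of histidine, lysine, branched-chain amino acid, sulfur or purine synthesis, hexose transport, glycolysis, gluconeogenesis, the tricarboxylic acid cycle, the respiratory chain, trehalose and glycogen, cytosolic ribosomal proteins or the proteasome. The medians of these lists lay between −0.08 and 0.16. Over all 44 lists, 35 of 786 distinct measured genes were called (4.45%), against 20 of the 4663 other genes (0.429%). The lists were chosen with results of these data known, so these shares are a description.

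**Figure D5:**
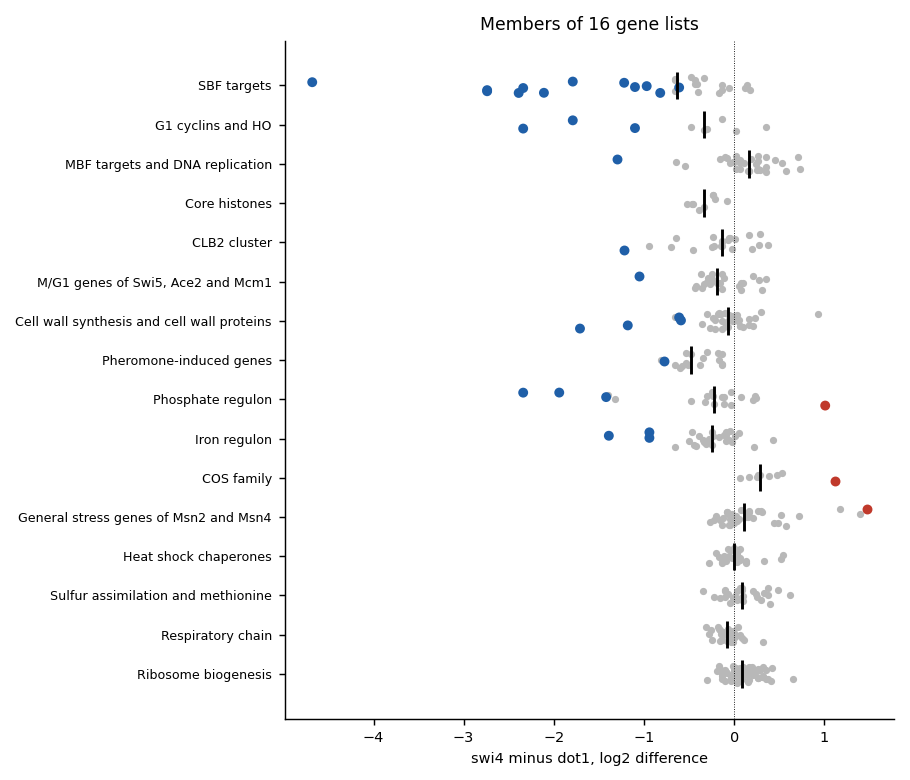
Difference swi4 minus dot1 on the log2 scale (horizontal axis) for the members of 16 gene lists, each point 1 gene and each bar the median of a list, with called genes in blue (lower) and red (higher). The median of the SBF targets is −0.63, and the medians of the lists of heat shock and respiratory genes are 0.00 and −0.08.

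The remaining called genes had mixed roles. Those lower were PLB2, a phospholipase, which had 12.19 and 12.11 in dot1 and 10.74 and 10.81 in swi4 (−1.38 ± 0.09, adjusted p = 0.00132) and held whichever array was left out, and 6 others. OPT2, an oligopeptide transporter gene, had 10.18 and 9.80 in dot1 and 8.78 and 8.77 in swi4 (−1.21 ± 0.18, adjusted p = 0.0419), with wt lowest, at 7.71 and 7.29. RSB1, of sphingoid base export (−0.95), YIL014C-A (−0.89), SUR1, of sphingolipid mannosylation (−0.75), IBA57, of mitochondrial iron-sulfur proteins (−0.61), and SPC42, of the spindle pole body (−0.59), followed. OPT2 was the 1 called gene, of 34 lower genes other than SWI4, in which wt lay on the far side of swi4, and for 12 of them wt lay beyond dot1. These 6 genes were named because they complete the account, after their values were seen, and each lost its call with any array left out.

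The remaining genes that were higher began with THI13, of thiamine precursor synthesis, at 8.32 and 7.83 in dot1 and 9.85 and 9.76 in swi4 (1.73 ± 0.19, adjusted p = 0.0168), read by a probe set shared with near-identical copies. HPA3, an acetyltransferase gene, had 9.15 and 8.99 in dot1 and 10.05 and 10.16 in swi4 (1.04 ± 0.10, adjusted p = 0.00664), with wt below both at 8.31 and 8.39. BNA2, the entry enzyme from tryptophan to NAD, had 6.88 and 6.58 in dot1 and 7.96 and 8.01 in swi4 (1.26 ± 0.16, adjusted p = 0.0219). The strains did not overlap for any of the 3 genes, which each passed in 1 of the 4 fits with an array left out. OSW2, of the spore wall, gave 1.02 ± 0.13, ALG14, of glycan assembly, 0.94 ± 0.14, YJR096W, an aldo-keto reductase, 0.88 ± 0.11, and DCG1 0.77 ± 0.11. RPP1, of ribonuclease P (0.61), and FMO1, a flavin monooxygenase (0.54), complete the 20 and were likewise named after their values were seen. The genes from OSW2 to FMO1 had adjusted p-values from 0.0215 to 0.046. Each of them lost its call in most or all of the fits with an array left out. Of the 19 higher genes other than DOT1, wt lay between the strains in 13, nearer to dot1 in 7 and nearer to swi4 in 6, and beyond dot1 in 6.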

How the data were processed

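Biotinylated cRNA was made from total RNA, per the labels' protocols, and each sample was measured on 1 Affymetrix Yeast Genome array. The authors deposited linear intensity values for each probe set, computed by RMA (background correction, quantile normalization, probe summary), per the submitters' processing notes. The version is not given in the sources used here. Log2 was taken here. Of 5814 probe sets, 5498 had a symbol, updated through a gene table of assembly R64, and gave 5449 genes. The brightest probe set stood for the 47 genes with several, and 117 genes lie on shared probe sets.

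Differences were fitted with limma 3.58.1 in R 4.3.3 (lmFit, eBayes, two-sided, Benjamini-Hochberg) as 4 group means over all 8 arrays, so wt and ard1 enter the error only (4 residual degrees of freedom, 2.73 from the prior). An exact permutation test of 2 against 2 arrays cannot go below p = 0.333. The number of arrays limits the precision. The members and gene lists were chosen with earlier results of these data known. Named by rule were the deleted genes and their neighbours, the 15 largest called differences in each direction, all members of the SBF, G1 cyclin and regulator lists, up to 6 called or 3 largest members of other lists, and genes called whichever array was left out. Alternatives were the arrays fitted, scaling, filter, variance model, probe set rule, replicate block and leaving out each array.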

Additional observations from a re-analysis of the deposited data

Results flagged for a closer look

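Among 218 probe sets that no table at hand gives a gene name, and which the comparison of genes leaves out, 2 passed the threshold when all probe sets were fitted together. Probe set 1773061_s_at had 11.14 and 10.97 in dot1 and 9.95 and 9.77 in swi4 (−1.20 ± 0.10, adjusted p = 0.00445 with limma), with wt at 10.29 and 10.23. Probe set 1769344_at had 11.90 and 11.77 in dot1 and 12.52 and 12.48 in swi4 (0.66 ± 0.09, adjusted p = 0.0265 with limma), with wt at 11.59 and 11.52. None of the 98 control and reporter probe sets passed, and their differences ran from −0.65 to 0.24. With 2 arrays per group no group was large enough to test a sample as standing apart.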

How the results depend on the processing

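No alternative reversed the direction of any of the 55 called genes. Leaving out an array could not do so, because the strains did not overlap for any of them. Counts of higher and lower genes, 20 and 35, were 3 and 13 with only the 4 compared arrays fitted and 38 and 42 with array weights. They were 17 and 27 after quantile normalization and 29 and 49 with a trend and robust variance model. Leaving out 1 compared array gave 2 to 21 higher and 10 to 17 lower. The 35 called list members became 14 with the 4 arrays and 55 with the trend and robust model, and 11 to 20 with an array left out. The 9 called genes at chromosome ends became 5 and 14 for 4 and 12 genes per arm, 2 with the 4 arrays and 15 with array weights, the fits being chosen after seeing the data, and 1 to 11 with an array left out. The causes were not tested, apart from fewer arrays where some were left out.

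With replicate number as a block (replicate block), 75 genes were higher and 78 lower, 62 list members were called, among them 3 higher replication genes and 2 lower histone genes, and all 55 genes kept their call. At chromosome ends 29 genes were called, 18 higher and 11 lower, of which 14 higher and 4 lower lay among the 4 outermost of each arm, where there had been 5 and 0. With 2 same-numbered pairs in this comparison, and labels that tie the numbers to no shared day or culture, the samples were not treated as paired. The deviations of same-numbered swi4 and dot1 arrays correlated over genes at 0.413, beside 0.754 for wt and dot1.

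With an array left out, signs turned for 2395 of the 5449 genes. None of the 55 called could turn, because their swi4 and dot1 arrays did not overlap. Of the genes named here or read for the lists, 16 turned. Lowest and highest values were −0.34 and 0.11 for BCK2, −0.15 and 0.03 for BUD9, −0.02 and 0.05 for CLB6, −0.35 and 0.02 for LEU2, −0.43 and 0.02 for MBP1, −0.35 and 0.02 for NDD1, −0.05 and 0.69 for NDE2, and −0.05 and 0.37 for PDC6. They were −0.32 and 0.03 for PHO84, −0.01 and 0.20 for RPS1A, −0.03 and 0.31 for RSR1, −0.21 and 0.00 for SAG1, −0.19 and 0.06 for SKN7, −0.02 and 0.26 for TOS3, −0.16 and 0.02 for WHI5, and −0.03 and 0.58 for XBP1. MF(ALPHA)2 was at 0.00 after median centring. The planned count of promoter motifs was not run, for want of promoter sequences.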

Other observations

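Genes of a few small pathways that were in no list, chosen here after their values were seen, lay beside called genes in function and carry no test of a group. In the pathway from tryptophan to NAD, BNA2 was called at 1.26. BNA1 and BNA7 had 0.57 ± 0.15 (limma, adjusted p = 0.183) and 0.51 ± 0.10 (limma, adjusted p = 0.0931). For each, both swi4 arrays lay above both dot1 arrays, as for 20.6% of all genes. BNA7 had 9.54 and 9.32 in dot1 and 9.91 and 9.97 in swi4. Beside DCG1, called at 0.77, the allantoin breakdown genes DAL1 and DAL7 had 0.83 ± 0.15 (limma, adjusted p = 0.0707) and 0.71 ± 0.13 (limma, adjusted p = 0.0715). PUT1, the proline oxidase gene, had 0.80 ± 0.14 (limma, adjusted p = 0.0695), at 7.95 and 8.07 in dot1 and 8.64 and 8.99 in swi4.

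The thiamine-repressed genes THI13 and PHO3 were both called higher, at 1.73 and 1.01, whereas THI20, of thiamine salvage, had 0.20 ± 0.11 (limma, adjusted p = 0.564). SNZ3, of vitamin precursor synthesis, had 0.71 ± 0.14 (limma, adjusted p = 0.0866).

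There were 10 genes that differed by at least 2-fold without a call. Near chromosome ends these included YBL111C, at 7.14 and 7.39 in dot1 and 8.55 and 8.05 in swi4 (1.03 ± 0.17, limma, adjusted p = 0.0536), and YFL065C, at 5.99 and 5.50 in dot1 and 6.79 and 6.84 in swi4 (1.07 ± 0.18, limma, adjusted p = 0.0606), both on shared probe sets. Others were YOR338W (1.27 ± 0.31), PIR5 (1.13 ± 0.27) and SPS19 (1.08 ± 0.27), whose SE were among the larger of the genes named, beside a median SE of 0.13 over all genes.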
